A study of Mus musculus with 20 samples.

Results

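LβT2 cells, an established mouse line of pituitary gonadotropes, were compared after a single 2 min pulse of 10 nM gonadotropin-releasing hormone (GnRH) and after perifusion without hormone. The arrays were chosen by their sample titles, which gave 2 arrays of 1 pulse at 10 nM and 2 unstimulated arrays, 4 of the 20 arrays in the series. All cells had grown on microcarrier beads, were kept overnight without serum, and were perifused in columns for 4 h in serum-free medium, after which total RNA was taken. The other 16 arrays carried 4 or 8 pulses or tonic GnRH at 10 nM, and 1, 2, 4 or 8 pulses or tonic GnRH at 100 nM, again 2 arrays a group. The labels do not say when within the 4 h the single pulse was given, nor whether the 2 arrays of a group were grown separately; the spread behind each p-value may thus be technical. The sample codes give the unstimulated arrays the letters A and D and the 1 pulse arrays the letters B and C. Letter and treatment cannot be told apart in this comparison.

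A second label field, for the pulse number, contradicted the title for 8 of the 20 samples. That field put the 1 pulse array C among arrays of 2 pulses and the unstimulated array D among arrays of constant 100 nM GnRH. The unstimulated array D had a signal of 3456 for Srxn1, where the arrays titled tonic 100 nM had 64953 and 82050. It had 1109 for Rrad, where the tonic arrays had 24479 and 29923. The tonic 100 nM array D was itself a conflicting sample, which the second field put among arrays of 1 pulse at 100 nM. No array was titled 2 pulses at 10 nM, so the 1 pulse array C had no such comparison, and the titles of the other conflicting samples were not checked against their values. Groups follow the titles throughout. With groups from the second field, limma called 0 probe sets in the comparison of 1 pulse with no hormone, with 212 at an unadjusted p under 0.05. In that field the group of 1 pulse at 10 nM joins the 1 pulse array B with the array C titled tonic 10 nM. Its unstimulated group joins the unstimulated array A with the array D titled 4 pulses 100 nM. These counts therefore do not bear on the titled groups.

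GnRH is the hypothalamic peptide that drives the release of luteinising and follicle-stimulating hormone. It acts on a receptor coupled mainly to Gq, which activates phospholipase C, calcium entry, protein kinase C and the MAP kinases. These kinases switch on immediate early genes such as Egr1, Fos and Jun within minutes, without new protein synthesis, and their transcripts decay within hours. Egr1, with Nr5a1 and Pitx1, drives the luteinising hormone beta subunit gene Lhb. Proteins such as Nab1, Nab2, Rgs2, Rrad and Gem hold the response back. Gonadotropes read the interval between GnRH pulses as well as the dose, so a single small pulse is the lower end of the range of stimuli in this study.

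The mean signal trimmed at both ends was 2501.25 to 2501.75 on all 20 arrays, a level set by the MAS5 scaling. The median signal of the 4 arrays was 755 to 807. The 2 unstimulated arrays correlated at 0.971 and the 2 arrays of 1 pulse at 0.981 over log2 signals. The median absolute difference between the unstimulated arrays was 0.23 on the log2 scale, with 227 probe sets over 1, and that between the 1 pulse arrays was 0.18, with 156 over 1. The ratio of 3' to 5' signal for Gapdh was 0.90 to 1.012 on the 4 arrays. For actin it was 3.638 on the 1 pulse array C and 2.247 to 2.417 on the other 3, and its part in the results was not tested. Gonadotrope markers summed to 114659 and 128168 without hormone and to 144836 and 156810 after the pulse, with Cga, Lhb, Nr5a1, Pitx1 and Gnrhr tested and Fshb below the filter. Markers of other pituitary cells summed to 7025 to 8235, with 5 or 6 of their 10 genes on the array below the filter level on each array. Markers of non-pituitary cells summed to 15581 to 18341, with 6 or 7 of 14 below it.

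No probe set passed the test between the single 10 nM pulse and unstimulated cells. Signals were compared as log2(signal + 166.8), so differences of dim genes are understated, and a limma model over all 20 arrays tested 8491 probe sets. At a Benjamini-Hochberg adjusted p under 0.05 it called 0 of them (0%), and the smallest adjusted p was 0.407. At an unadjusted p under 0.05 there were 708 (8.34%), of which 325 (3.83%) were higher and 383 (4.51%) lower after the pulse, where chance gives about 425. The median difference over all probe sets was -0.011 on the log2 scale. The 2 arrays of one group both exceeded the 2 of the other for 1749 probe sets (20.6%) in favour of the pulse and for 1919 (22.6%) in favour of no hormone. The median standard error was 0.23, so a difference of about 0.48 was needed for an unadjusted p under 0.05. In simulated data of the same size and spread, 100 probe sets were changed by 1 on the log2 scale and 100 by 2. The same model recovered 70% of the former and 99% of the latter. The adjusted threshold loosens as more probe sets change, so these shares do not carry over to data with fewer changes. Calls appeared only when an unstimulated array was left out. Without array A the neuropeptide gene Npy (1.84 ± 0.28, adjusted p = 0.0152) and Sac3d1 (1.74 ± 0.22, adjusted p = 0.00387) were called, and without array D the gene Pnmt (1.87 ± 0.29, adjusted p = 0.0403). In each of those fits the lone unstimulated array was assumed to vary like the other groups. For Sac3d1 the unstimulated arrays themselves stood apart, at 8098 in A and 2575 in D, beside 8530 and 9458 after the pulse.

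**Figure D1:**
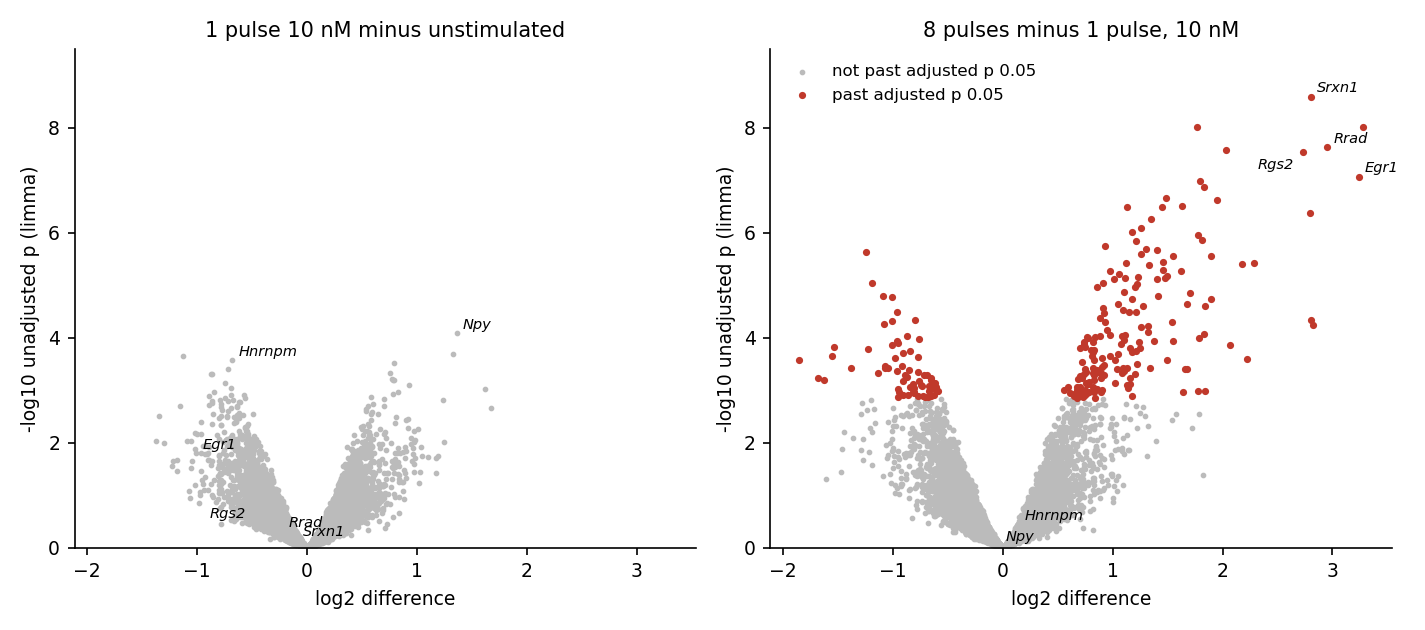
Each point is 1 of 8491 probe sets, with the log2 difference on the horizontal axis and -log10 of the unadjusted limma p on the vertical axis, for 1 pulse of 10 nM minus unstimulated (left) and 8 pulses minus 1 pulse at 10 nM (right). Red points passed an adjusted p of 0.05: there are 0 on the left and 239 on the right, where Egr1, Srxn1, Rrad and Rgs2 lie at the upper right.

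Immediate early genes encode the transcription factors and short-lived proteins made first after a stimulus. Of 34 on the list 28 were on the array and 25 were tested, and none passed in either direction. Their differences between pulse and no hormone were above 0 for 8 genes and below 0 for 17, with a median of -0.23 beside -0.0083 over all 6216 genes. The 2 groups did not overlap for 5 of the 25 (20%) in the lower direction and for 3 (12%) in the higher direction, against 23% and 21.1% of all genes. At an unadjusted p under 0.05 there were 3 lower and 1 higher, where all genes gave 4.83% lower and 3.88% higher.

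Egr1, the zinc finger factor that drives Lhb, had signals of 1311 and 3258 without hormone and of 1380 and 644 after the pulse. The groups overlapped, with the unstimulated array D highest and the 1 pulse array C lowest, and the difference was -1.01 ± 0.38 (SE, adjusted p = 0.526, limma). A second, dimmer probe set for Egr1 differed by 0.05 ± 0.40. Nr4a1, an orphan nuclear receptor induced by calcium and cAMP, had 2053 and 10938 without hormone and 4844 and 1492 after the pulse. Array D alone stood out again, and the difference was -0.78 ± 0.54 (adjusted p = 0.706). Fos, a partner of Jun in the AP-1 factor, had 3978 and 9824 without hormone and 5127 and 1919 after the pulse. Egr2, a close relative of Egr1, had 525 and 1563 without hormone and 1006 and 574 after the pulse, a difference of -0.23 ± 0.36. In Fos and Egr2 too, array D was the highest of the 4, and the groups overlapped.

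Btg2, an antiproliferative protein, had 5941 and 9100 without hormone and 5587 and 4768 after the pulse. Both pulse arrays lay below both unstimulated arrays, by 0.50 on the log2 scale on average (unadjusted p = 0.0306, adjusted p = 0.566). Jund, a Jun family member, was the early gene of smallest unadjusted p and lay in the opposite direction. Its signals were 13694 and 17122 without hormone and 24275 and 21728 after the pulse, a difference of 0.58 ± 0.20 (unadjusted p = 0.00857, adjusted p = 0.525). Klf6, a Krüppel-like factor, had 1778 and 2617 against 1292 and 1289, again without overlap and not past the test.

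The median of the early genes followed single arrays. In 19 of the 25 (76.0%) the unstimulated array D was higher than A, with a median gap of 0.49, against 50.1% of all genes. After the pulse, array C was higher than B in 4 of the 25 (16.0%), against 47.8% of all genes. Without the unstimulated array D the median difference of the list was 0.12, and without A it was -0.50. Without the 1 pulse array C it was -0.036. Over the 10 groups of the series, the single 10 nM pulse had the lowest mean of all in 13 of the 25 early genes (52.0%), against 11.8% of all genes, and the unstimulated group in 5 (20%), against 10.6%. The plot of signals by array shows this spread for the genes named here.

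The sequences just upstream of Srxn1, Rgs2, Nr4a1 and Btg2 are shown as examples of windows with matches, from 9 genes called between 8 pulses and 1 pulse whose windows were searched. They are the 250 bases before the RefSeq start of each gene, on GRCm38.p6, in the direction of transcription. Capitals mark the AP-1 site TGACTCA, the cAMP response element core TGACG (the full element TGACGTCA holds it on both strands) and the Egr site GCGNGGGCG, searched on both strands. Srxn1 lies at chr2:152105274-152105523 on the plus strand, Rgs2 at chr1:144004150-144004399 on the minus strand, Nr4a1 at chr15:101266596-101266845 on the plus strand and Btg2 at chr1:134079156-134079405 on the minus strand.
Srxn1: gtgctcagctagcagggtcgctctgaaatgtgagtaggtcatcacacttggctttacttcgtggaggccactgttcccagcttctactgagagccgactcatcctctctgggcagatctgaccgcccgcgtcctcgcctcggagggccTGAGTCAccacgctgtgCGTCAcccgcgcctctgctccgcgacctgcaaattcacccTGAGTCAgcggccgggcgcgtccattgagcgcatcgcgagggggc
Rgs2: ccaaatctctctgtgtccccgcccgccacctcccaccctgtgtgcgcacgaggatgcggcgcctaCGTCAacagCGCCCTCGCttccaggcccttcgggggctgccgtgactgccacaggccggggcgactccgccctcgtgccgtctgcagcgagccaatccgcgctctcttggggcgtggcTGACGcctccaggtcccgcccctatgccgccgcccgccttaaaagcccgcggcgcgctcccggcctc
Nr4a1: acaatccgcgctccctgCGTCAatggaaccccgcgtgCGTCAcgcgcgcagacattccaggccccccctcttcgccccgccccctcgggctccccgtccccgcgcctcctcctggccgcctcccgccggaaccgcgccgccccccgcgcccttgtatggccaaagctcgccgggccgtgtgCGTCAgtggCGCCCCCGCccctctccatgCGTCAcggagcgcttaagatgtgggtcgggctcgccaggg
Btg2: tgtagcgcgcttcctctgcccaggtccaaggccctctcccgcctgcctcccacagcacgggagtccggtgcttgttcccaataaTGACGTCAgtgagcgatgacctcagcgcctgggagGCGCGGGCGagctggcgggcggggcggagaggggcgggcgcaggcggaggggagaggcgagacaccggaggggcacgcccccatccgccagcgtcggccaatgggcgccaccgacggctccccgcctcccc
Among 32851 mouse upstream windows of the same length, 4.46% held the AP-1 site, 17.8% the core element, 1.55% the full element and 4.70% the Egr site. Srxn1 held 2 AP-1 sites and a core element, Rgs2 and Nr4a1 held core elements and an Egr site, and Btg2 held the full element and an Egr site. The windows of Nab2 and Idi1, among the 9 genes, held none of these motifs, nor the CArG box or the sterol element TCACNCCAC, which 1.47% and 1.05% of all windows held. Egr2, Hipk2 and Mmp12 each had a window with none of them and at least 1 other window with a match. A match describes letters in the window and is not a measured binding site.

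The feedback regulators, which damp MAP kinase, Gq and Egr signalling, also gave no call. Of 23 on the list 14 were tested; 8 differences were above 0 and 6 below, with a median of 0.046. The groups did not overlap for 3 of the 14 (21.4%) in the higher direction and 1 (7.14%) in the lower, against 21.1% and 23% of all genes. With 1 array dropped the median ran from -0.13 (unstimulated A) to 0.16 (1 pulse C), and array A was below D in 11 of the 14 regulators (78.6%).

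Gem, a small GTPase that inhibits calcium channels, was the only regulator of 14 with an unadjusted p under 0.05. At that level 4.83% of all genes were lower and 3.88% higher. Gem had signals of 1939 and 2604 without hormone and 1333 and 907 after the pulse, a difference of -0.93 ± 0.35 (unadjusted p = 0.0162, adjusted p = 0.526). Rrad, a GTPase of the same family, had 594 and 1109 against 811 and 560, so its groups overlapped. Rgs2, which speeds the shut-off of Gq, had 1781 and 3148 without hormone and 1910 and 1447 after the pulse, and differed by -0.47 ± 0.30 with a 95% interval from -1.10 to 0.15. For the corepressors of Egr factors the interval of the difference covered 0. Nab1 had 3261 and 3285 without hormone and 3790 and 3607 after the pulse, a difference of 0.17 ± 0.22 (95% interval -0.30 to 0.63). Nab2 had 956 and 1329 without hormone and 1576 and 1286 after the pulse, a difference of 0.30 ± 0.20 (95% interval -0.13 to 0.72).

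Genes that define the gonadotrope gave no call. Of 19 tested gonadotrope genes 0 passed, 10 differences were above 0 and 9 below, and the median was 0.095, or -0.019 with quantile normalisation. Groups did not overlap for 7 of the 19 (36.8%) in the higher direction and for 3 (15.8%) in the lower, against 21.1% and 23% of all genes. The median was 0.20 with the 1 pulse array B dropped and 0.027 with the unstimulated array D dropped. Cga, the alpha subunit shared by the gonadotropins, had 72648 and 79815 without hormone and 85976 and 104697 after the pulse. It differed by 0.32 ± 0.20 (adjusted p = 0.684), and a second probe set by 0.09. Lhb had 2873 and 2610 without hormone and 3361 and 3661 after the pulse, a difference of 0.34 ± 0.19 (adjusted p = 0.657, 95% interval -0.067 to 0.75). Both pulse arrays exceeded both unstimulated arrays for Lhb and for the first Cga probe set, while the groups overlapped on the second. Nr5a1, the steroidogenic factor that marks the gonadotrope lineage, had 12336 and 12930 against 15849 and 14694. Nr0b1, a repressor of Nr5a1, had 22923 and 23583 against 26705 and 28183. Both followed the same order of groups, and neither passed. Further probe sets of Nr5a1 differed by 0.18, without overlap, and by 0.006, with overlap. Gnrhr, the receptor for GnRH, had 750 and 1012 against 904 and 649 and overlapped. Fshb, the follicle-stimulating hormone beta subunit, was not tested because of low signal, at 452 and 167 without hormone and 418 and 384 after the pulse.

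The signalling parts downstream of the receptor and the secretory machinery gave no call either. Of 24 tested signalling genes 8 differences were above 0 and 16 below, with a median of -0.092. It was -0.019 with 12 on each side once the 1 pulse array C was dropped, and -0.13 without the 1 pulse array B. Without the unstimulated arrays A and D in turn it was -0.10 and -0.052. Ppp3ca, the calcium-activated phosphatase calcineurin, had the smallest p of that list, with 3147 and 4200 without hormone and 2831 and 2670 after the pulse (-0.38 ± 0.18, adjusted p = 0.595). Of 18 exocytosis genes 10 were above 0 and 8 below, with a median of 0.055 that was -9e-04 with quantile normalisation. It was -0.039 and 0.072 with the unstimulated arrays A and D dropped in turn. With the 1 pulse arrays B and C dropped in turn it was -0.046 and 0.13. Syt11, a synaptotagmin, had 1728 and 1706 without hormone and 990 and 1097 after the pulse (-0.64 ± 0.23, adjusted p = 0.526). The small GTPase Rab3a, which tethers secretory vesicles, had 1003 and 1010 against 1686 and 1480. Syt11 and Rab3a thus lay apart without overlap in opposite directions, with neither past the test. Groups did not overlap for 3 of the 18 exocytosis genes (16.7%) in the higher direction and for 2 (11.1%) in the lower. For the 24 signalling genes these were 2 (8.33%) and 7 (29.2%), against 21.1% and 23% of all genes.

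Among the other groups the heat shock proteins, chaperones of the cytosol and mitochondria, had the lowest median at -0.32, with 9 of 12 below 0. None passed, and 6 of the 12 (50.0%) had groups without overlap in the lower direction, against 23% of all genes. The direction of the median was kept without each of the 4 arrays, between -0.21 and -0.15. Hsph1, a nucleotide exchange factor for Hsp70, had 13797 and 14000 without hormone and 7812 and 8599 after the pulse. The groups lay far apart relative to their spread, with a difference of -0.75 ± 0.18 (unadjusted p = 0.000728, adjusted p = 0.407). Dnaja1, an Hsp40 partner of Hsp70, had 19124 and 16326 without hormone and 9604 and 11467 after the pulse, a difference of -0.74 ± 0.20. Hspa1b, the stress-induced Hsp70 itself, was at 4381 and 11520 without hormone and at 6617 and 2473 after the pulse, and its standard error was 0.83.

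The ribosomal proteins lay on the other side, with 11 of 13 above 0 and a median of 0.25. Groups did not overlap for 9 of the 13 (69.2%) in the higher direction and for 1 (7.69%) in the lower, against 21.1% and 23% of all genes. The median stayed above 0 without any single array, between 0.15 and 0.37, but with quantile normalisation it was -0.012. Rps7 had 49711 and 51986 without hormone and 58661 and 73544 after the pulse. Hypoxia and glycolysis genes had a median of 0.27 with 15 of 20 above 0, -0.076 without the unstimulated array A and 0.54 without D. Array A was below D in 19 of the 20 (95%). Slc2a1, the main glucose transporter, showed that gap, at 621 in A and 2725 in D beside 2965 and 1575 after the pulse. Cytoskeleton and SRF target genes had 17 of 22 above 0 with a median of 0.092, which was 0.19 with the 1 pulse array C dropped, while only 12 were above 0 with B dropped. Tubb6, a beta tubulin, had 4356 and 3395 without hormone and 5880 and 5638 after the pulse (0.56 ± 0.18, adjusted p = 0.525).

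Cholesterol synthesis genes had 10 of 16 above 0 and a median of 0.17, which was 0.02 with 8 above 0 when the unstimulated array A was dropped, 0.097 when the 1 pulse array C was and 0.31 when the unstimulated array D was. Idi1, the isomerase that makes dimethylallyl pyrophosphate, had the smallest p of the list and lay in the lower direction, at 5679 and 6803 without hormone and 3822 and 4599 after the pulse (-0.55 ± 0.18, unadjusted p = 0.00637, adjusted p = 0.525). Unfolded protein response genes had a median of -0.17 with 12 of 19 below 0. It was 0.12 without the unstimulated array D and 0.015 without the 1 pulse array C. Without the unstimulated array A it was -0.195, and without the 1 pulse array B -0.198. Clock genes had a median of -0.12 with 11 of 15 below 0. It was 0.21 without D, 0.12 without C, -0.29 without A and -0.25 without B. Cell cycle genes divided evenly, with 17 of 33 above 0 and a median of 0.0089 that was -0.044 with quantile normalisation and ran from -0.13 to 0.053 with 1 array dropped (1 pulse B and C), while Ccna2, the S phase cyclin, had 7747 and 7417 without hormone and 4915 and 5401 after the pulse (-0.54 ± 0.19, adjusted p = 0.525). Redox enzymes had 10 of 16 above 0 and a median of 0.12. With the unstimulated array A, the 1 pulse array B and the unstimulated array D dropped in turn it was 0.013, 0.0081 and 6e-04. Without the 1 pulse array C it was 0.15.

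**Figure D2:**
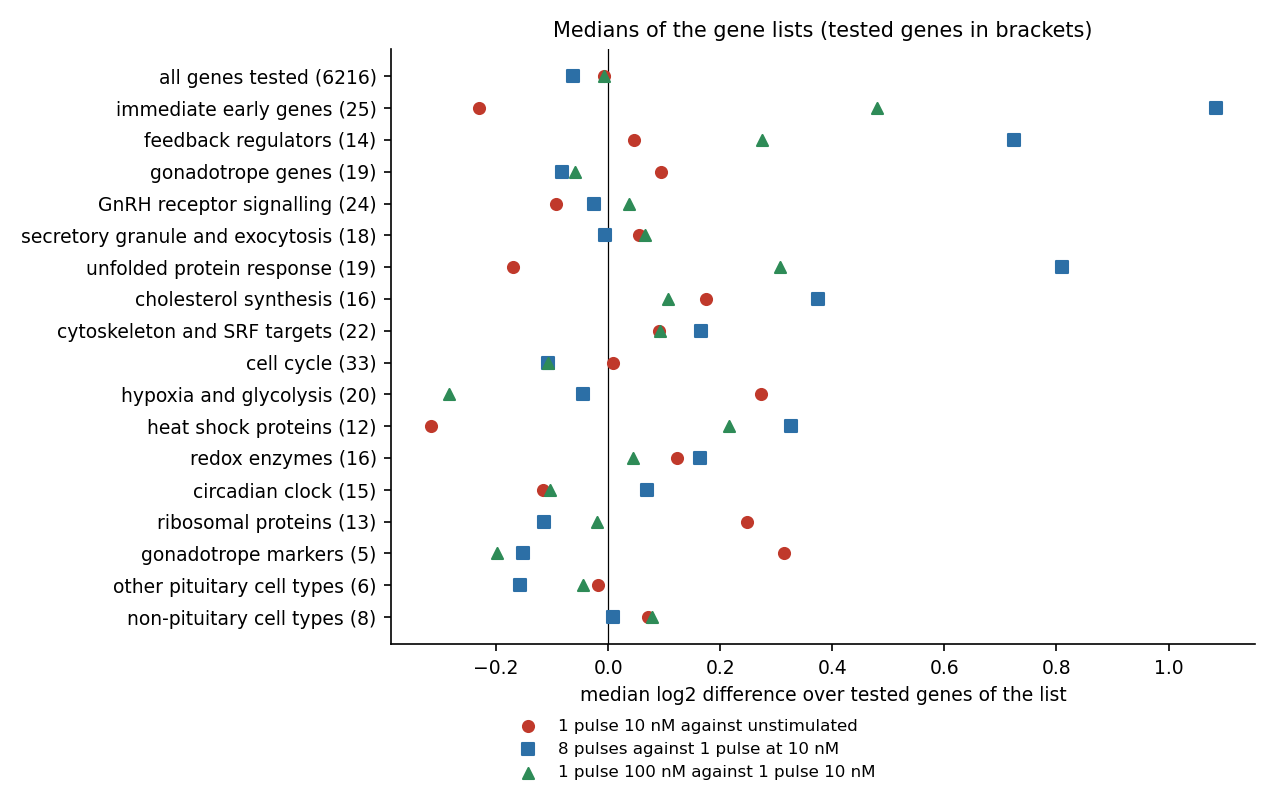
Median log2 difference over the tested genes of each list, in 1 pulse of 10 nM against unstimulated (red circles), 8 pulses against 1 pulse at 10 nM (blue squares) and 1 pulse of 100 nM against 1 pulse of 10 nM (green triangles). The early genes are at -0.23 in the first comparison, 1.08 in the second and 0.48 in the third; the 3 comparisons share the arrays of 1 pulse at 10 nM, whose level enters the first with a plus sign and the others with a minus sign.

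The 12 genes of smallest p in each direction are given as values, since none passed. Npy, a neuropeptide, had 495 and 176 without hormone and 1051 and 1063 after the pulse, a difference of 1.36 ± 0.27 (unadjusted p = 8.03e-05, adjusted p = 0.407). Its pulse arrays agreed closely while its unstimulated arrays differed from each other. Pnmt, the enzyme that makes adrenaline from noradrenaline, had 400 and 1021 without hormone and 1934 and 1862 after the pulse (1.33 ± 0.29). A second probe set for Pnmt differed by -0.33 ± 0.25, so the 2 probe sets disagreed in sign. Psmb5, a catalytic subunit of the proteasome, had 14351 and 12779 without hormone and 23375 and 23859 after the pulse (0.79 ± 0.18), and its second probe set differed by 0.26. Mrpl17, a protein of the mitochondrial ribosome, had 2852 and 2797 without hormone and 4370 and 4251 after the pulse (0.58 ± 0.15), and Mrpl54 and Mrps11 differed by 0.83 and 0.70. Wnt6, a secreted signalling protein, was dim throughout, at 170 on both unstimulated arrays and at 449 and 501 after the pulse. The others were Pgls, Tmem160, Zbtb17, Pold4 and Smg5, with differences from 0.76 to 1.62, and a second probe set for Smg5 differed by 0.06. Every hormone group of the series lay above the unstimulated mean for Npy (by 0.94 to 1.48) and Wnt6 (by 0.87 to 1.52). The same held for Mrpl54, Pold4 and the first probe sets of Pnmt and Smg5. It did not hold for Psmb5, Pgls, Tmem160, Zbtb17, Mrpl17 or Mrps11. The genes were chosen by their p against the same 2 unstimulated arrays. The level of those arrays enters every one of these differences, so the order adds no separate support.

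In the lower direction the gene of smallest p was Hnrnpm, a nuclear RNA-binding protein. Its signals were 9345 and 11694 without hormone and 6242 and 6679 after the pulse, a difference of -0.68 ± 0.15 (unadjusted p = 0.000267, adjusted p = 0.407). Clk4, a kinase that phosphorylates splicing factors, had 3926 and 3587 without hormone and 2470 and 1998 after the pulse (-0.71 ± 0.17), and its second probe set differed by -0.56. Srsf10 and Prpf38b differed by -0.89 and -0.70, and a second probe set for Srsf10 by -0.22. Wnk1, a kinase that controls ion transport, had 8252 and 8854 without hormone and 4728 and 4512 after the pulse (-0.86 ± 0.20), and its second probe set differed by -0.38. Chd1, a chromatin remodeller, had 3634 and 3769 without hormone and 1985 and 2401 after the pulse (-0.72 ± 0.19). The remaining genes of the 12 were Yipf4, Atad1, Septin7, Cmpk1 and the chaperones Hsph1 and Dnaja1, with differences from -0.87 to -0.56. Every hormone group of the series lay below the unstimulated mean for Hnrnpm, Atad1, Cmpk1 and the first probe sets of Wnk1 and Srsf10, and not for the others. The same unstimulated arrays entered the choice of these genes and each of these differences, so this order too adds no separate support.

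**Figure D3:**
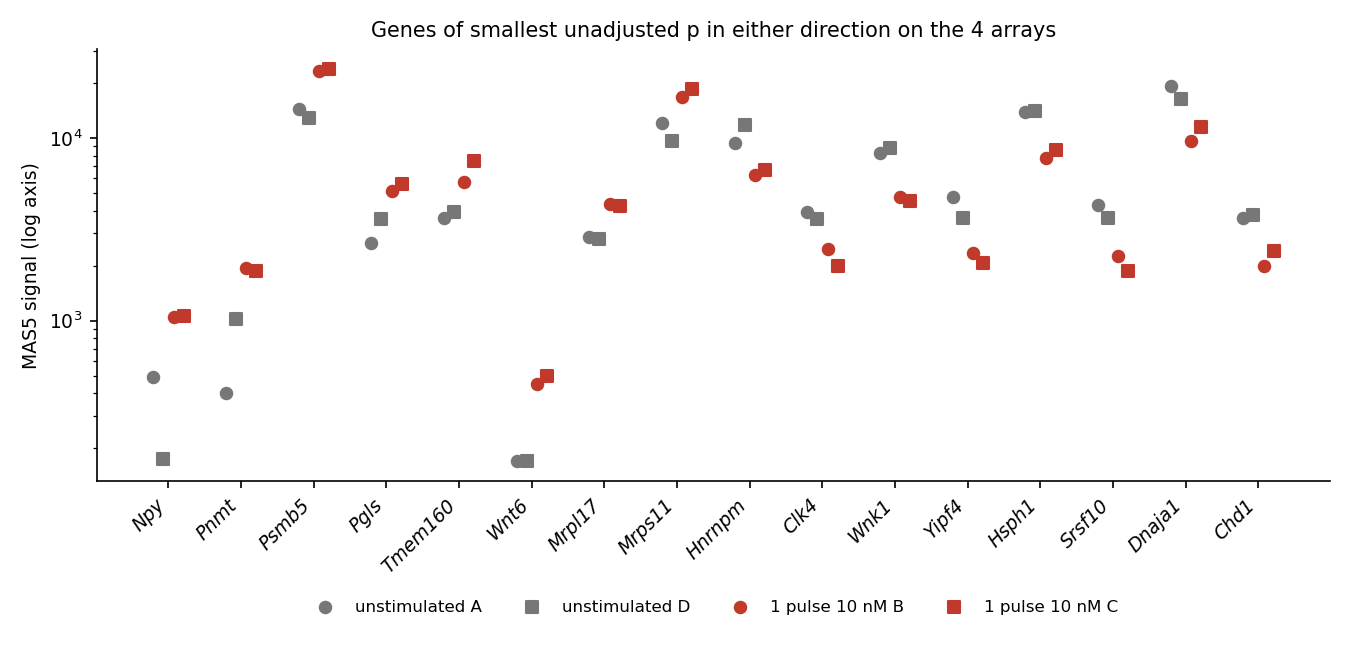
MAS5 signal on a log axis for 16 of the 24 genes of smallest unadjusted p, those higher after the pulse on the left (Npy to Mrps11) and those lower on the right (Hnrnpm to Chd1), 1 point per array. The grey unstimulated points and the red pulse points do not overlap in any of these genes, which were chosen by their p in this comparison, and the unstimulated arrays A and D lie apart from each other for Npy (495 and 176) and Pnmt (400 and 1021).

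The single pulse was then set against more pulses of the same dose, where both sides carry the letters B and C. Between 4 pulses and 1 pulse limma called 0 of 8491 probe sets (0%), with 398 (4.69%) at an unadjusted p under 0.05 and a smallest adjusted p of 0.104. Rgs2 had 5593 and 6366 after 4 pulses beside 1910 and 1447 after 1 pulse (1.74 ± 0.30, adjusted p = 0.104), and the early genes gave 0 calls, with 18 of 25 differences above 0 and a median of 0.35. Srxn1, which repairs oxidised peroxiredoxins, had 9458 and 9482 beside 4107 and 2701 (1.46 ± 0.26, adjusted p = 0.104), and its second, dimmer probe set differed by -0.22. Rgs2 and the first Srxn1 probe set were called with the letter as a fixed replicate block, at adjusted p = 0.00292 for Rgs2 and 0.00368 for Srxn1.

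Between 8 pulses and 1 pulse most early genes and 7 feedback regulators rose. Limma called 239 probe sets (2.81%), of which 171 (2.01%) were higher after 8 pulses and 68 (0.801%) lower, and 561 with the letter as a fixed replicate block. Of the 25 early genes 15 rose and 0 fell, and of the 14 feedback regulators 7 rose and 0 fell, beside 2.25% of all genes that rose and 0.901% that fell. The median difference was 1.08 for the early genes and 0.72 for the regulators, against -0.063 for all genes. Leaving out 1 array at a time left 62 to 102 calls (62 without the 1 pulse array C, 81 without the 8 pulse array C, 91 without the 8 pulse array B and 102 without the 1 pulse array B), 6 to 14 calls among the early genes (6 without the 1 pulse array C) and 3 to 6 among the regulators (3 without that array). With groups from the second label field 0 probe sets were called, and with only the samples whose labels agree, which leaves 1 array of 1 pulse, 24.

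Egr1 had 13497 and 8017 after 8 pulses beside 1380 and 644 after 1 pulse, a rise of 3.24 ± 0.38 (9.44-fold, adjusted p = 0.000103). Its dimmer second probe set differed by 0.39 ± 0.40. Egr2 had 6471 and 6185 beside 1006 and 574, a rise of 2.80 ± 0.36 (adjusted p = 0.000232). Rrad had 6125 and 6591 beside 811 and 560, a rise of 2.95 ± 0.32 (7.74-fold). For all 3 genes both arrays of 8 pulses were far above both arrays of 1 pulse. Rgs2 rose by 2.74 ± 0.30, Gem by 2.28 ± 0.35, and Nab1 and Nab2 by 1.22 and 1.23. Btg2 rose by 1.79 ± 0.21 and Nr4a1 by 2.82 ± 0.54, the latter with 19997 and 20399 beside 4844 and 1492. Nr4a1 was not called without the 8 pulse array B, the 8 pulse array C or the 1 pulse array C, Nab1 not without either array C, and Nab2 not without the 1 pulse array C.

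Outside these lists Srxn1 rose by 2.80 ± 0.26 (26533 and 22232 after 8 pulses) and Mmp12, a matrix metalloproteinase, by 3.28 ± 0.33 (3489 and 2424 beside 239 and 80). A second probe set for Srxn1 differed by -0.028, and a second one for Mmp12 by 1.68. Unfolded protein response genes rose in 4 of 19, cytoskeleton genes in 4 of 22 and cholesterol synthesis genes in 3 of 16, beside 2.25% of all genes. Of these Idi1 had 13387 and 16024 beside 3822 and 4599. With 1 array left out these counts were 0 to 1, 2 to 3 and 2 to 3. Of 19 gonadotrope genes 0 passed, and Lhb stood at 3090 and 3138 beside 3361 and 3661 after 1 pulse. With 1 array left out, calls in the lower direction shrank by a larger share than those in the higher direction. Among the falls, Zbtb17, a zinc finger partner of Myc, fell by 1.86 ± 0.41 on the log2 scale (adjusted p = 0.018). Its signals after 1 pulse were 2814 and 2135, beside 418 and 1076 without hormone, and it was not called without any one of the 4 arrays compared.

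**Figure D4:**
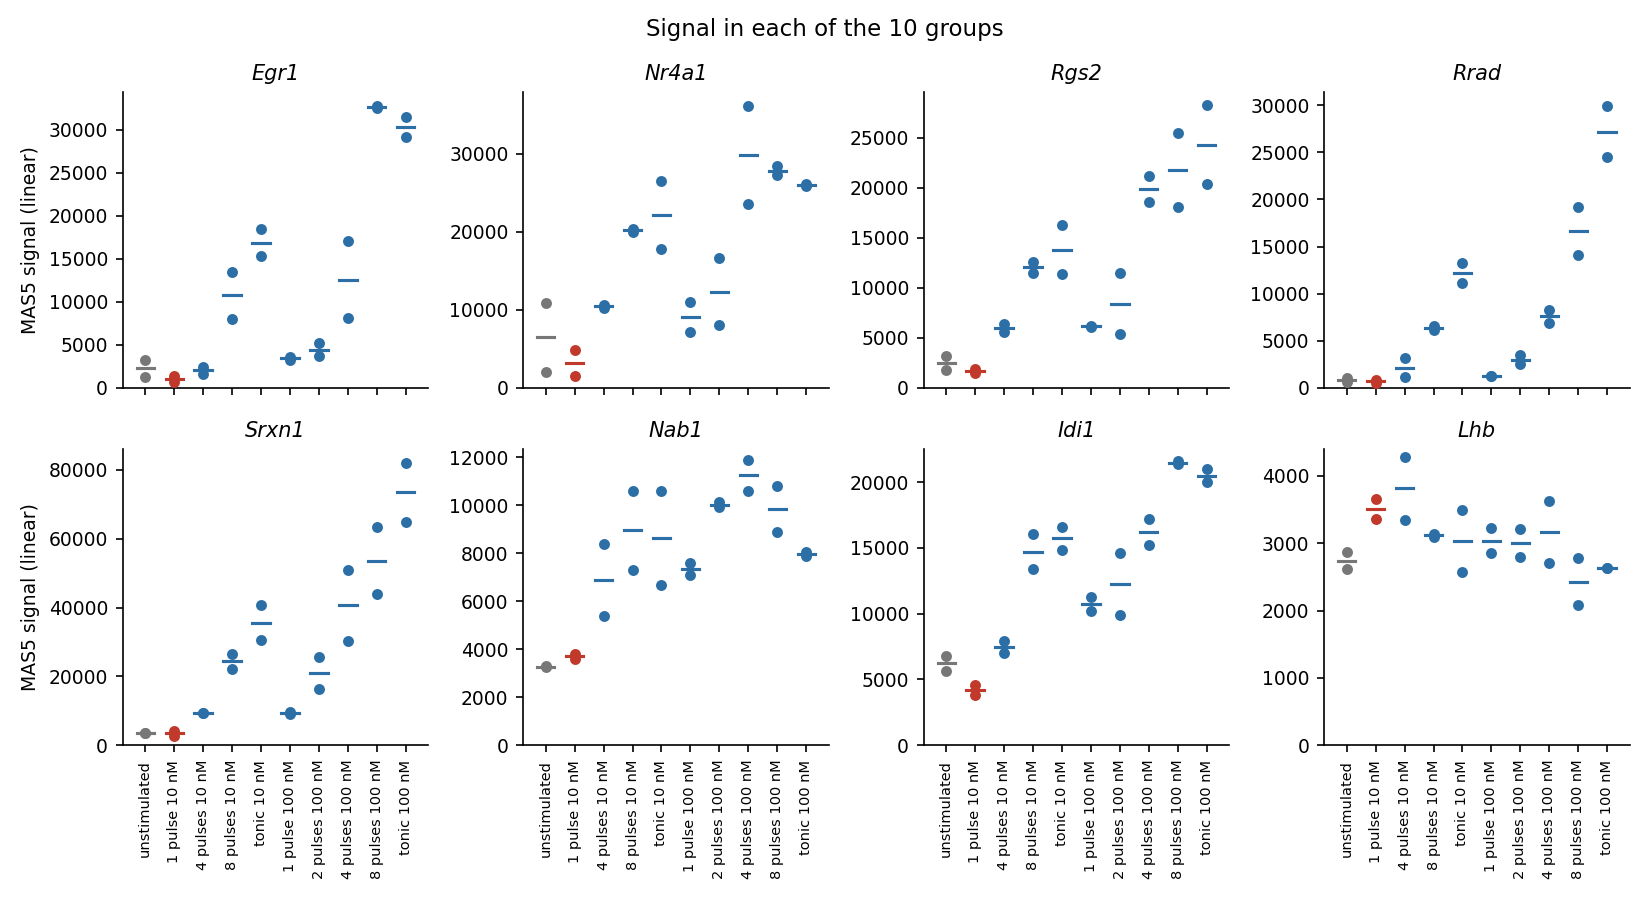
MAS5 signal on a linear axis in the 10 groups of the series, 1 point per array and a bar at the mean of 2 arrays, with unstimulated in grey and 1 pulse of 10 nM in red. For Egr1, Rgs2, Rrad and Srxn1 the single 10 nM pulse overlaps with the unstimulated arrays, and 8 pulses at 10 nM lie above both; Lhb shows no such step.

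The last comparison set a single pulse of 100 nM against a single pulse of 10 nM. Limma called 14 probe sets (0.165%), 11 (0.13%) higher and 3 (0.0353%) lower at 100 nM. With groups from the second label field, which on each side join a 1 pulse array with an array titled tonic, it called 0. The sides carry different letters, A and D against B and C, so dose and letter cannot be told apart here. Leaving out any one of the 4 arrays left 0 or 1 calls. Idi1 had 10180 and 11296 after 100 nM beside 3822 and 4599 after 10 nM, a rise of 1.32 ± 0.18 (2.50-fold, adjusted p = 0.00579), and it was called without the 10 nM array C but not without any of the other 3. Rgs2 had 6183 and 6112 beside 1910 and 1447 (1.79 ± 0.30, adjusted p = 0.0302). Srxn1 had 9737 and 9029 beside 4107 and 2701 (1.45 ± 0.26, adjusted p = 0.0373), and its second, dimmer probe set differed by -0.13. For Idi1, Rgs2 and the first Srxn1 probe set, both arrays of the higher dose exceeded both arrays of the lower dose and both unstimulated arrays.

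Also called were Nefm, a neurofilament subunit (1.55 ± 0.24), Hipk2, a nuclear kinase (1.48 ± 0.26), Fosl1, an AP-1 member (1.23), Cpne3 (1.20), Anxa5 (0.97), Fndc3a (1.06), Hmgcs1 of cholesterol synthesis (0.78) and a probe set of the cell cycle inhibitor Cdkn1a (1.23). Maf1, a repressor of RNA polymerase III, fell by 1.04 ± 0.20 on the log2 scale, and Tbc1d10a and a probe set of Tubb3 fell by 0.87 and 1.26. The probe sets of highest mean signal for Cdkn1a and Tubb3 were not called. Fosl1 was the 1 early gene called of 25 and Rgs2 the 1 regulator of 14, beside 0.161% of all genes that rose and 0.0322% that fell. Egr1 had 3265 and 3658 after 100 nM and differed by 1.69 ± 0.38 (adjusted p = 0.0856), which did not pass. Nab1 had 7076 and 7604 and differed by 0.96 ± 0.22 (adjusted p = 0.0856), and Rrad had 1242 and 1238 and differed by 0.74 ± 0.32 (adjusted p = 0.467). Cga and Lhb differed by 0.05 ± 0.20 and -0.20 ± 0.19 between the doses.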

How the data were processed

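The deposited values are MAS5 probe set intensities on a linear scale, scaled to a common level by the authors; MAS5 is named in the submitters' processing notes, with its version and the chip definition not given in the sources used here. All 20 columns were matched to samples by title (0 unmatched). Signals were used as log2(signal + 166.8), 166.8 being the 25th percentile of all signals. After removal of 66 control probe sets from 12488, a filter kept the 8491 whose signal passed 427 (40th percentile) on 2 or more arrays. A limma model (3.58.1, R 4.3.3) with 1 mean per group was fitted to all 20 arrays in 10 groups (10 residual and 8.2 prior degrees of freedom, eBayes with intensity trend), with two-sided p-values adjusted by Benjamini-Hochberg at 0.05 over all 8491. Intervals are 95% intervals of that model, and ± is its standard error with 2 arrays a group. The model was tested on simulated data. The number of arrays limits precision.

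In the platform annotation 10833 probe sets have 1 gene, 396 have several and 1193 are absent. Each of 6216 genes is represented by its tested probe set of highest mean log2 signal. Of the tested probe sets 1765 carry a letter suffix in their name, which can mark probes shared with other transcripts. Among them are those quoted for Tubb6, Sac3d1, the first of Psmb5 and of Smg5, and the called one of Tubb3. Signal from related transcripts was not tested. Named genes are the 12 of smallest p in each direction where none passed, up to 3 of smallest p of each list, a set list (Egr1, Egr2, Nab1, Nab2, Rgs2, Rrad, Srxn1, Mmp12, Lhb, Fshb, Cga, Gnrhr), and the 4 largest rises and falls of the other comparisons, of which the text gives a selection; Fos, Klf6, Hspa1b, Slc2a1 and the remaining genes called between doses were named after their values were seen. The arrays and gene lists were chosen with earlier results of these data known.

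Letters as a pairing were checked from residual correlations between groups: B and C gave 0.13 to 0.345 over 6 pairs of groups, so the blocked values are printed beside those results, while unstimulated and 1 pulse arrays share no letter. A and D, the letters of the unstimulated arrays, gave 0.08 to 0.32. The consensus correlation of arrays sharing a letter was 0.175. Alternatives were other scalings, offsets and filters, no trend, only the groups compared, groups from the second label field, only samples whose labels agree, the letter as a block, and leaving out each array; medians and calls of the gene lists under these were added after seeing the data. Upstream sequences are from RefSeq on GRCm38.p6.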

Additional observations from a re-analysis of the deposited data

Results flagged for a closer look

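Differences between groups under the same contrast were found by the limma test of the difference itself. Between 8 pulses and 1 pulse at 10 nM this gave 239 probe sets, and among the named genes Egr1 (3.24), Rrad (2.95), Mmp12 (3.28), Nr4a1 (2.82), Zbtb17 (-1.86), Recql5 (-1.68), Mast3 (-1.62) and Sema6b (-1.55) differed, as log2 differences. The fit of only the samples whose labels agree did not call Recql5, Mast3 or Sema6b. Sema6b passed the filter level of 427 on both 1 pulse arrays, at 611 and 692, and stood at 161 and 360 without hormone. Its log2 mean was 9.68 after 1 pulse and 8.12 after 8 pulses. The arrays that set its fall thus also carried it through the filter, and the fall ends at a dim signal. Between single pulses of 100 and 10 nM the test gave 14 probe sets, among them Rgs2 (1.79), Srxn1 (1.45), Nefm (1.55), Hipk2 (1.48), Maf1 (-1.04) and Tbc1d10a (-0.87). Groups of 2 arrays are too small for a test of single outlying arrays.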

How the results depend on the processing

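The comparison of 1 pulse at 10 nM with no hormone kept 0 calls under every alternative but the leave-one-out fits, which gave 0 to 2 (2 without the unstimulated array A, 1 without D). No fixed replicate block could be fitted there because the sides share no letter; with the letter as a random replicate block it gave 0 calls, with 753 at an unadjusted p under 0.05. For 4 pulses against 1 pulse, quantile normalisation gave 2 calls, only the groups compared 1, and the letter as a random or a fixed replicate block 2 each; leaving out 1 array gave 0 to 4 (4 without the 4 pulse array B). For 8 pulses against 1 pulse the 239 calls became 159 with no filter, 154 with no intensity trend, 0 with groups from the second label field and 24 with only samples whose labels agree. They became 463 with the letter as a random replicate block and 561 with it as a fixed replicate block, both of which held all 239, and 62 to 102 with 1 array left out. For 100 against 10 nM the 14 calls became 5 with equal array medians, 1 with no filter, 1 with no intensity trend, 6 with only the groups compared, 0 with groups from the second label field, 0 with only samples whose labels agree, and 0 to 1 with 1 array left out; the random block gave 19, the stricter filter 20 and quantile normalisation 21. The cause of these changes was not tested. In the second label field the 1 pulse groups of both doses hold an array titled tonic, so counts with that field do not bear on the titled groups. None of the named probe sets that were called changed sign under these alternatives; the other called probe sets were not followed singly. Samples whose labels agree leave 1 array a side in the comparisons of 1 pulse at 10 nM with no hormone and with 100 nM, so a count of 0 there says little. With 2 arrays a group, differences under about 0.48 on the log2 scale could not reach an unadjusted p of 0.05 at the median standard error.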
